A study of Mus musculus with 12 samples.

Results

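The genes described here are 8 members of the LIF, JAK and STAT3 pathway: *Lifr*, *Il6st*, *Jak1*, *Stat3*, *Socs3*, *Pim1*, *Pim3* and *Gbx2*. They were taken by symbol from the 24881 gene symbols of the expression table, and all 8 were found and passed the filter on low values, as did 12572 genes in all. RNA was sequenced from mouse R1 ESCs that carry the FUCCI reporters, fluorescent proteins that mark cell cycle phases, after sorting of cells in G1 phase. The 4 groups were WT ESCs and P53-/- ESCs, each in serum and in 2i, with 2 libraries a group. All cells carried the FUCCI reporters, and LIF was present in both cultures. 2i medium is free of serum and adds an inhibitor of MEK and an inhibitor of GSK3. P53-/- ESCs were clones made with CRISPR/Cas9 guides against an exon shared by *Trp53* isoforms. The study names a pair of clones for the RNA-seq, but the table does not say which clone gave which library. Libraries are numbered here by their order in the table. Nothing says that the WT libraries of a group came from separate cultures, so that p-values measure only the spread between these samples, which may in part be technical.

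LIF is the cytokine that keeps mouse ESCs self-renewing in culture. It binds its receptor chain, encoded by *Lifr*, which pairs with the shared chain gp130, encoded by *Il6st*. The kinase JAK1 on the receptor tails then phosphorylates STAT3, which dimerises, enters the nucleus and activates genes. SOCS3 is induced by STAT3 and blocks the receptor complex as feedback, while the kinases Pim1 and Pim3 and the homeobox factor Gbx2 are products of STAT3-activated genes that favour self-renewal. The measurements below are of RNA and hold nothing on phosphorylation.

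Values are FPKM, fragment numbers scaled by transcript length and by the mapped fragments of a library. Depth was estimated from the steps between low values, at 5100000 to 9800000 fragments a library in 2i and 7100000 to 12900000 in serum, up to a common factor. *Trp53* had 7.25 and 1.88 FPKM in P53-/- 2i ESCs against 26.8 and 33.7 in WT 2i ESCs, and 16.8 and 3.68 in P53-/- serum ESCs against 77.6 and 75.1 in WT serum ESCs. It was lower in every P53-/- library, and the P53-/- libraries differed from each other within both cultures. A list of 8 ESC markers summed to 3530 to 4470 FPKM over all libraries, with every marker above 1 FPKM in at least 1 library. *Dppa5a*, at 1400 to 2690 FPKM, was the largest part of each sum. Between cultures, 4 of the 8 were called by limma in WT ESCs, 1 higher and 3 lower in 2i (50% against 55.7% of all genes). In P53-/- ESCs 6 were called, 1 higher and 5 lower (75% against 58.2%). *Utf1*, for example, had 4.81 to 7.3 FPKM in 2i and 46.3 to 55.6 in serum. Among lists of 8 markers for other cell types, 3 of the primitive endoderm list, 4 of mesoderm, 3 of neural progenitors, 5 of trophoblast and 3 of fibroblasts exceeded 1 FPKM in any library, and *Col3a1* and *Postn* were listed at 0 throughout. Summed primitive endoderm markers lay at 1.72 to 2.62 FPKM in P53-/- 2i, 3.34 to 6.29 in WT 2i, 12.5 to 13 in P53-/- serum and 20 to 20.2 in WT serum. The serum sums were mostly *Col4a1*, at 11.2 to 17.4 FPKM in serum and 0.0907 to 1.94 in 2i, and of the 2 tested markers of this list 1 was called higher and 1 lower in 2i in each genotype. Fibroblast markers summed to 3.3 to 5.02 FPKM in P53-/- 2i, 7.7 to 9.94 in WT 2i, 11.4 to 13 in P53-/- serum and 10.7 to 11.2 in WT serum. Trophoblast markers summed to 56.2 to 58.5, 68.2 to 114, 9.94 to 15.9 and 15.1 to 16.5 FPKM in the same order of groups, and mesoderm markers to 8.96 to 13.6, 12.9 to 14.6, 2.97 to 3.37 and 4.03 to 4.13. The 2i sums of trophoblast markers were mostly *Krt8*, with 103 and 51.9 FPKM in the WT libraries against 43.3 and 42.9 in P53-/-, whereas *Krt7* was higher in P53-/- 2i (2.39 and 1.94 against 0.165 and 0.883). Neural markers lay at 22.9 to 27.8 FPKM in P53-/- 2i, 32 to 34.4 in WT 2i, 36.1 to 41.5 in P53-/- serum and 26.5 to 27.9 in WT serum. In 2i the P53-/- sums of the primitive endoderm, fibroblast, trophoblast and neural lists lay under the WT sums without overlap. The neural sums were mostly *Tubb3* (20.7 and 15.8 FPKM in P53-/- 2i, 28.8 and 26.7 in WT 2i), and *Sox1* was lower too. By contrast, *Nes* (5.6 and 5.19 against 3.68 and 3.42) and *Pax6* (0.584 and 0.731 against 0.21 and 0.157) were higher in P53-/- 2i without overlap. The fibroblast sums were mostly *Twist1* in 2i and *Thy1* in serum. A lower sum therefore does not mean that every gene of a list was lower. The part of these markers in the P53 and culture results below was not tested.

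The receptor genes, *Socs3* and *Gbx2* were lower in 2i than in serum in WT ESCs, whereas *Jak1*, *Stat3*, *Pim1* and *Pim3* were not called. In WT ESCs, *Gbx2* was 7.75-fold lower in 2i, *Il6st* 2.26-fold, *Lifr* 2.12-fold and *Socs3* 1.78-fold. In P53-/- ESCs, *Gbx2*, *Lifr*, *Socs3* and *Pim3* were lower in 2i and *Jak1* was 1.59-fold higher. Loss of P53 was accompanied by 1.63-fold more *Il6st* and 1.66-fold more *Pim1* in 2i, and by no called change of a member in serum. Both of these calls were lost in a fit of the compared groups only, and without some single libraries, as given below. The P53 comparisons and the culture comparisons share libraries with each other, so that their values for a member are not independent.

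**Figure D1:**
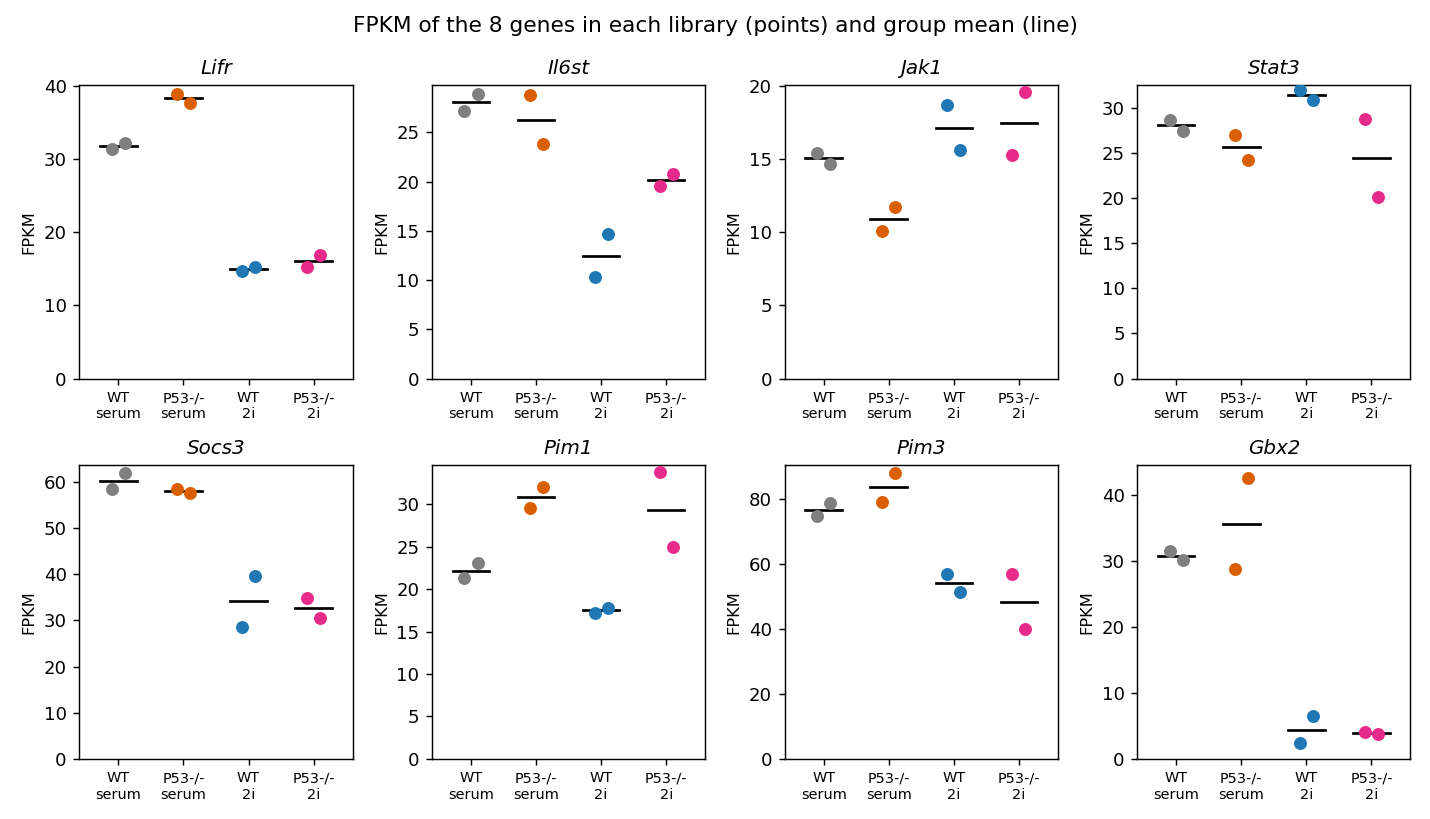
FPKM (vertical axes, each from 0) of the 8 members in the 2 libraries of each group (points), with the group mean as a line. *Gbx2* lies at 2.34 to 6.41 FPKM in 2i and 28.8 to 42.5 in serum, and *Stat3* spans 20.2 to 32 over all libraries.

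*Lifr*, the LIF-binding chain, had 15.2 and 16.9 FPKM in P53-/- 2i ESCs, 14.7 and 15.2 in WT 2i ESCs, 38.9 and 37.7 in P53-/- serum ESCs and 31.3 and 32.2 in WT serum ESCs. Every 2i library lay under every serum library, and the serum groups did not overlap each other. *Lifr* fell by 1.08 on the log2 scale in 2i in WT ESCs (SE 0.11, limma adjusted p = 0.000173) and by 1.25 in P53-/- ESCs (SE 0.11, limma adjusted p = 7.98e-05). In serum the P53-/- level was 1.21-fold that of WT, a difference with a limma adjusted p of 0.433. The order of group means ran from P53-/- serum at 38.3 FPKM through WT serum at 31.7 and P53-/- 2i at 16 to WT 2i at 14.9, and of these neighbours only the last pair overlapped. In bulk libraries fewer cells expressing a gene and less RNA per cell cannot be told apart, here and for each gene below.

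*Il6st*, the gp130 chain shared by the cytokines of this family, had 19.6 and 20.8 FPKM in P53-/- 2i ESCs, 10.3 and 14.7 in WT 2i ESCs, 28.8 and 23.8 in P53-/- serum ESCs and 27.2 and 28.9 in WT serum ESCs. WT 2i was the lowest group, P53-/- 2i lay between it and serum, and the serum groups overlapped. The difference of P53-/- 2i from WT 2i was 0.70 on the log2 scale (SE 0.18, limma adjusted p = 0.0636). It was 0.45 without WT 2i library 1 (limma adjusted p = 0.167), the lowest of the 8 libraries. The call was also lost without P53-/- 2i library 1 (limma adjusted p = 0.161) or 2 (0.24), and without WT serum library 1 (0.138) or 2 (0.123), with log2 differences of 0.66 to 0.75. In WT ESCs *Il6st* fell by 1.18 on the log2 scale in 2i (SE 0.18, limma adjusted p = 0.00105). In P53-/- ESCs the 2i level was 0.769 times the serum level, not called (limma adjusted p = 0.107). The difference between these culture effects, which is also that between the P53 effects, was 0.80 on the log2 scale (95% interval 0.20 to 1.40) and did not pass adjustment (limma adjusted p = 0.269).

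*Jak1*, the main receptor-bound kinase of this pathway, had 15.3 and 19.6 FPKM in P53-/- 2i ESCs, 18.7 and 15.6 in WT 2i ESCs, 10.1 and 11.7 in P53-/- serum ESCs and 15.4 and 14.7 in WT serum ESCs. The P53-/- serum libraries were the lowest, and the 2i groups overlapped. *Jak1* rose by 0.67 on the log2 scale in 2i in P53-/- ESCs (SE 0.17, limma adjusted p = 0.00935), whereas WT ESCs gave 0.19 (limma adjusted p = 0.366). The fold in P53-/- ESCs dropped under the limit of 1.5 without P53-/- 2i library 2 (0.49 on the log2 scale) and the call was lost likewise at 0.57 without P53-/- serum library 1. In serum P53-/- was 1.38-fold lower than WT, not called (limma adjusted p = 0.355). The test of the difference between cultures gave 0.48 on the log2 scale (95% interval -0.07 to 1.03, limma adjusted p = 0.437).

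*Stat3*, the transcription factor of the pathway, had 28.8 and 20.2 FPKM in P53-/- 2i ESCs, 32 and 30.9 in WT 2i ESCs, 27 and 24.3 in P53-/- serum ESCs and 28.7 and 27.5 in WT serum ESCs. P53-/- libraries lay under WT in both cultures without overlap, though P53-/- 2i library 2 stood under library 1 by a ratio of 1.42. None of the 5 comparisons called *Stat3*, and its group means ran from 24.5 FPKM in P53-/- 2i to 31.5 in WT 2i, a 1.28-fold range. The P53-/- 2i difference from WT was -0.38 on the log2 scale (95% interval -0.77 to 0.02, limma adjusted p = 0.214). Without P53-/- 2i library 1 it was -0.63 and called (limma adjusted p = 0.0818). *Stat3* overlaps *Stat5a* on the other strand, and whether counting used strand is not given in the sources used here. With mean levels of 27.4 FPKM for *Stat3* and 1.9 for *Stat5a*, shared reads would weigh more on *Stat5a*.

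*Socs3*, the feedback inhibitor, is the one member whose RefSeq promoter window held TTCNNNGAA, the core letters that STAT factors bind. The motif is its own reverse complement and was searched on both strands, and 8.3% of 32851 windows of 250 bases before to 50 after a gene's start held it, as did 1 of 10 windows of the 8 members. The 250 bases before the *Socs3* start, GRCm38.p6 chr11:117969367-117969616 on the minus strand, are shown 5′ to 3′ because this is the sole member window with the motif. Capitals mark the motif, which lies 154 to 146 bases before the start.
Socs3: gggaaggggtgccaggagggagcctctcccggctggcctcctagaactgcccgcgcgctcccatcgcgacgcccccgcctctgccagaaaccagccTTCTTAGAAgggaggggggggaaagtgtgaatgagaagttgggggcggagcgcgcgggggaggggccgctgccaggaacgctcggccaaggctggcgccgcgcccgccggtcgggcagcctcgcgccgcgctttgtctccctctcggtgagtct
A match is a description of the letters in this window, and binding was not measured here. Among 52 windows of 35 other pathway genes, 4 held the motif, those of *Cish*, *Irf1*, *Sgk1* and *Zfp36*.

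*Socs3* had 34.8 and 30.5 FPKM in P53-/- 2i ESCs, 28.6 and 39.7 in WT 2i ESCs, 58.4 and 57.7 in P53-/- serum ESCs and 58.4 and 62 in WT serum ESCs. All 2i libraries lay under all serum libraries, and within 2i the genotypes overlapped. *Socs3* fell by 0.83 on the log2 scale in 2i in WT ESCs (SE 0.17, limma adjusted p = 0.00333) and by 0.83 in P53-/- ESCs (SE 0.17, limma adjusted p = 0.00311). The P53 difference was -0.05 in 2i and -0.05 in serum, each with a 95% interval of -0.43 to 0.33 on the log2 scale.

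*Pim1*, a serine/threonine kinase, had 33.8 and 25 FPKM in P53-/- 2i ESCs, 17.2 and 17.8 in WT 2i ESCs, 29.6 and 32.1 in P53-/- serum ESCs and 21.3 and 23.1 in WT serum ESCs. P53-/- lay over WT in both cultures without overlap. *Pim1* rose by 0.73 on the log2 scale in P53-/- 2i ESCs (SE 0.16, limma adjusted p = 0.0375). The call was lost without P53-/- 2i library 1 (0.51, limma adjusted p = 0.124) and without WT 2i library 1 (0.71, limma adjusted p = 0.106). In serum the difference was 0.47 (95% interval 0.11 to 0.84) and was not called (limma adjusted p = 0.315), and the P53 effects of the cultures differed by 0.26 (95% interval -0.26 to 0.77, limma adjusted p = 0.662).

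*Pim3*, a second kinase of the same family, had 56.7 and 39.8 FPKM in P53-/- 2i ESCs, 56.7 and 51.2 in WT 2i ESCs, 79.1 and 87.9 in P53-/- serum ESCs and 74.7 and 78.6 in WT serum ESCs. Serum was over 2i in every library, and the genotypes overlapped in 2i. It fell by 0.81 on the log2 scale in 2i in P53-/- ESCs (SE 0.17, limma adjusted p = 0.00439), or by 0.56 without P53-/- 2i library 2, under the fold limit. In WT ESCs *Pim3* was 1.42-fold lower in 2i, with a limma adjusted p of 0.0346 but under the fold limit of 1.5. Per length, *Pim3* had the highest mean FPKM of the 8 members in each group.

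*Gbx2*, the homeobox factor, had 4.11 and 3.78 FPKM in P53-/- 2i ESCs, 2.34 and 6.41 in WT 2i ESCs, 28.8 and 42.5 in P53-/- serum ESCs and 31.5 and 30.1 in WT serum ESCs. Every serum library exceeded every 2i library, and WT 2i library 2 was 2.74 times library 1, the widest gap between libraries of a group among the members. *Gbx2* fell by 2.95 on the log2 scale in 2i in WT ESCs (SE 0.40, limma adjusted p = 0.000564) and by 3.12 in P53-/- ESCs (SE 0.40, limma adjusted p = 0.000387). In WT the difference was -2.25 without WT 2i library 1 and -3.66 without library 2, and both were called. The 2i levels rest on an estimated 39 to 86 fragments a library, against 455 to 866 in serum. Between genotypes in 2i the difference was 0.02 (95% interval -0.92 to 0.96), -0.69 without WT 2i library 1 and 0.73 without WT 2i library 2, so that 1 library sets its sign.

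In 2i, P53 loss called 2 of 8 members, both higher, against 10.3% of all genes tested in either direction, 4.36% called higher and 5.97% called lower. Without WT 2i library 1 no member was called. Without P53-/- 2i library 2 or either WT serum library *Pim1* alone was called, and without P53-/- 2i library 1 neither gene was called but *Stat3* was, as lower. The groups did not overlap for 3 of 8 members, against 53.6% of all genes, and the median difference of the members was 0.02 on the log2 scale, as over all genes (0.02). In serum 0 members were called by limma, against 1.02% of all genes (0.135% higher and 0.883% lower), and 3 had an unadjusted p under 0.05 (11.3% of all genes). Serum groups did not overlap for 6 of 8 members, against 47.5%. The difference of the P53 effect between cultures called 0 members by limma, against 0.207% of all genes, with 1 member, *Il6st*, at an unadjusted p under 0.05, against 13.1%.

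Between cultures, 4 of 8 members were called in WT ESCs, all lower in 2i, against 55.7% of all genes tested and 28.6% called lower. In P53-/- ESCs 5 of 8 were called, 4 lower and 1 higher, against 58.2% in all, 30.1% lower and 28% higher. The groups did not overlap for 8 of 8 members in WT, against 81.7%, and for 6 of 8 in P53-/- ESCs, against 81.8%. The median log2 difference of the members was -0.67 in WT and -0.59 in P53-/- ESCs, beside -0.02 and -0.03 over all genes. An unadjusted p under 0.05 was reached by 5 members in WT, against 63.8%, and by 5 in P53-/- ESCs, against 66%. The shares of members called in either direction lay near those of all genes. Those called lower, 4 of 8 in each genotype, lay above the 28.6% and 30.1% of all genes, a difference that was not tested. Without P53-/- 2i library 2, 3 members were called in P53-/- ESCs.

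**Figure D2:**
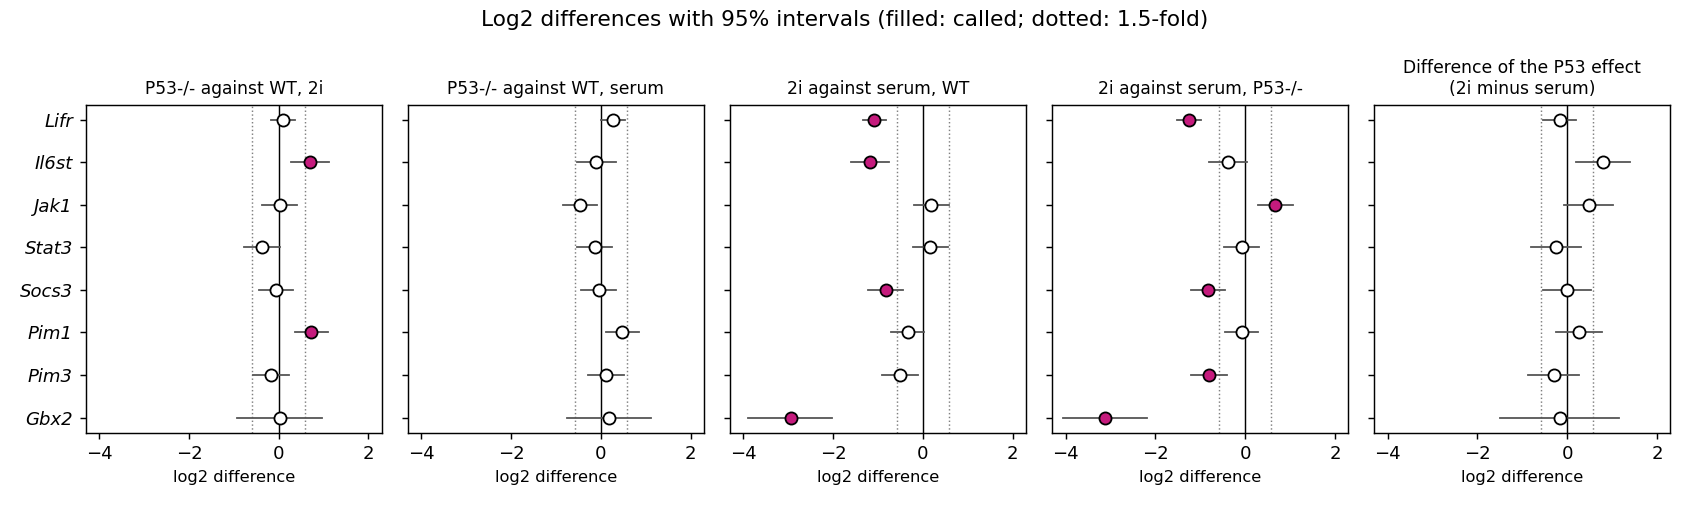
Differences on the log2(FPKM + 0.1) scale (horizontal axis) of the 8 members in the comparisons by limma, with 95% intervals as bars. The 2i against serum differences of *Gbx2*, -2.95 in WT and -3.12 in P53-/- ESCs, lie farthest from 0, and *Il6st* and *Pim1* are called in P53-/- 2i.

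The other genes of the pathway, a list of 49 of which 44 were tested, had 8 called lower and 0 called higher after P53 loss in 2i by limma, against 5.97% and 4.36% of all genes. The list's median difference was -0.18 on the log2 scale, beside 0.02 over all genes, and 18.2% of it was called against 10.3%. This list and its parts were chosen with earlier results of these data known, so their shares are not an independent comparison with all genes. The count was 5 without P53-/- 2i library 2. Some were called higher under other settings: *Ptpn2* (0.60) and *Socs6* (0.67) without WT 2i library 2, *Ptpn11* (0.70) without WT 2i library 1 and *Osm* (0.82) with a pseudocount of 1. In serum 2 of 44 were called, both lower (4.55% against 1.02%), and the median was 0.00. *Il6*, *Il11*, *Clcf1*, *Osmr* and *Cish* had too low a mean to be tested.

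Among ligands, *Lif* itself had 0.582 and 0.405 FPKM in P53-/- 2i ESCs against 2.29 and 3.07 in WT 2i ESCs, and 0.136 and 0.202 in P53-/- serum ESCs against 1.1 and 0.942 in WT serum ESCs. The genotypes did not overlap in either culture, at levels under 4 FPKM throughout. *Lif* fell by 2.23 on the log2 scale in 2i (SE 0.38, limma adjusted p = 0.0174) and by 2.06 in serum (SE 0.38, limma adjusted p = 0.0784). At these levels the size depends on the pseudocount: with 1 the differences were -1.29 in 2i and -0.79 in serum, the latter not called, and with 0.01 they were -2.42 and -2.54. The serum call was lost when any 1 of the 8 libraries was left out (limma adjusted p 0.116 to 0.365, log2 -2.24 to -1.89). The medium holds added LIF, which these values do not measure.

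*Jak3*, a JAK kinase best known from lymphocytes, had 10.2 and 8.23 FPKM in P53-/- 2i ESCs and 17.1 and 16.1 in WT 2i ESCs, and fell by 0.85 on the log2 scale (limma adjusted p = 0.0258). In serum it had 2.62 and 2.75 FPKM in P53-/- and 4.56 and 5.23 in WT, and fell by 0.84 (limma adjusted p = 0.0977). The 2i call was lost without P53-/- 2i library 2 (limma adjusted p = 0.133), and the serum call without any 1 library (0.121 to 0.422). *Stat5a*, a STAT factor of cytokine and hormone signalling, had 1.77 and 1.21 FPKM in P53-/- 2i against 4.28 and 4.14 in WT 2i, and fell by 1.46 on the log2 scale (limma adjusted p = 0.0698). The *Stat5a* call was lost without any 1 of the 2i libraries or the WT serum libraries (limma adjusted p 0.114 to 0.275), and without a filter on low values (0.103).

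Among inhibitors, *Pias2*, which belongs to a family of SUMO ligases that restrain STAT factors, had 45.1 and 45.9 FPKM in P53-/- 2i ESCs against 69.3 and 74 in WT 2i ESCs. It fell by 0.65 on the log2 scale (limma adjusted p = 0.0271), a call lost without P53-/- 2i library 1 (limma adjusted p = 0.104) or 2 (0.117). Of 12 other STAT3 target genes, 3 were called, all lower in P53-/- 2i ESCs (25%, against 10.3% of all genes called and 5.97% called lower). *Klf4*, a pluripotency factor that STAT3 activates, had 23.2 and 26.3 FPKM against 48.2 and 48.3 in WT 2i, and fell by 0.96 (SE 0.13, limma adjusted p = 0.00782). *Junb* had 15.4 and 15.4 against 26.6 and 26.1 and fell by 0.77 (limma adjusted p = 0.0124), and *Fos*, like *Junb* an AP-1 subunit, had 7.45 and 7.55 against 37 and 39.4 and fell by 2.33 (limma adjusted p = 0.0096). *Klf4*, *Junb* and *Fos* kept their 2i call with any 1 library left out. *Junb* overlaps *Prdx2* on the other strand, whose mean was 166 FPKM.

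In serum, *Klf4* had 47.7 and 57.7 FPKM in P53-/- against 46.5 and 46.7 in WT, and *Junb* was not called either. *Fos* had 2.22 and 0.984 FPKM in P53-/- against 3.58 and 2.48 in WT serum, without overlap, a difference of -0.96 (95% interval -1.74 to -0.18) that was not called (limma adjusted p = 0.337). Without P53-/- serum library 1 it was -1.51 and called (limma adjusted p = 0.074). The P53 effects on *Klf4* differed between cultures by -1.13 on the log2 scale (limma adjusted p = 0.102), and 0 of 44 pathway genes passed for this difference by limma, against 0.207% of all genes. An unadjusted p under 0.05 was reached by 8 of the 44, against 13.1% of all genes. Without P53-/- serum library 1 the *Klf4* difference was -1.27 and called (limma adjusted p = 0.0798).

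**Figure D3:**
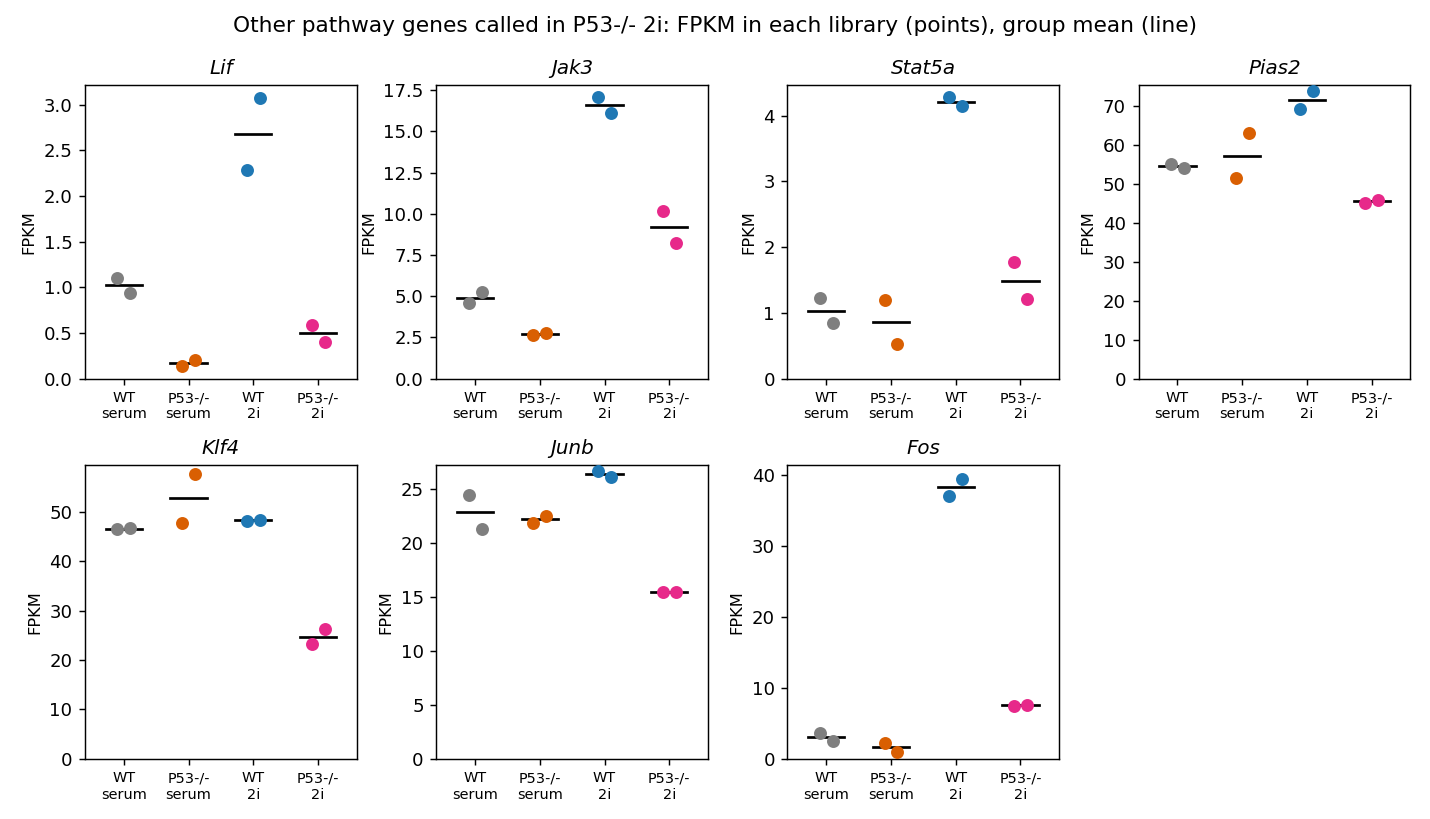
FPKM (vertical axes, each from 0) in each library (points) and group mean (line) of other pathway genes called between P53-/- and WT in 2i, those described in the text. The P53-/- 2i points lie under the WT 2i points in every panel, for *Fos* at 7.45 and 7.55 against 37 and 39.4.

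Between cultures, 30 of the 44 other pathway genes were called in WT ESCs, 17 higher and 13 lower in 2i (68.2% against 55.7% of all genes), and 26 in P53-/- ESCs, 12 higher and 14 lower (59.1% against 58.2%). The median difference of the list was 0.38 on the log2 scale in WT and 0.05 in P53-/- ESCs. *Myc*, a growth regulator, differed by -5.58 on the log2 scale in WT (limma adjusted p = 0.000116) and -5.58 in P53-/- ESCs (limma adjusted p = 1e-04). It had 22 and 26.9 FPKM in WT serum and 0.895 and 0.161 in WT 2i. The WT difference was -6.55 without WT 2i library 1 and -4.62 without WT 2i library 2, called in both cases. *Cntfr*, the receptor chain for CNTF, gave -4.62 in WT and -3.81 in P53-/- ESCs, though it was listed at 0 in library 2 of each 2i group. It gave -4.02 without WT 2i library 2 and -2.99 without P53-/- 2i library 2.

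Of the ligands, *Osm* was at 1.62 and 3.71 FPKM in WT 2i against 0.0408 and 0.0771 in WT serum, higher by 4.02 on the log2 scale (limma adjusted p = 0.000299). In P53-/- ESCs it had 5.46 and 4.95 FPKM in 2i and was listed at 0 in both serum libraries, so no fold is given. *Lif* was higher in 2i by 1.30 in WT and 1.14 in P53-/- (limma adjusted p = 0.0181 and 0.0301), and the latter call was lost without P53-/- 2i library 1 (0.92, adjusted p = 0.127) and with a pseudocount of 1 (0.35, adjusted p = 0.117). *Cntf* was called lower in both genotypes (-3.36 in WT and -3.17 in P53-/-), but it was listed at 0 in 1 library of each 2i group and overlaps *Zfp91* on the same strand. Its WT call was lost without WT 2i library 2 (-2.15) or WT serum library 1 (-3.06), and its P53-/- call without P53-/- 2i library 2 (-1.56) or P53-/- serum library 1 (-3.33) or 2 (-3.02). *Ctf1* was called higher in WT 2i (1.36), a call lost without WT 2i library 1 (0.85) or WT serum library 1 (1.02). Receptor chains of IL-6 and IL-11, *Il6ra* and *Il11ra1*, were higher in 2i in both genotypes, by 1.11 and 0.85 in WT and by 1.25 and 1.05 in P53-/- ESCs. The WT call of *Il11ra1*, which overlaps several genes, was lost without WT 2i library 1 (0.52) or WT serum library 2 (0.64).

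Of 3 other JAK kinases, *Jak3* was higher in 2i by 1.74 on the log2 scale in WT and 1.73 in P53-/- ESCs, and *Tyk2* by 0.96 and 1.58, all with limma adjusted p of 0.0045 or less. *Stat4* was lower in 2i in both genotypes (-1.49 and -2.65), whereas *Stat2* was higher in 2i in both (0.71 and 0.62). *Stat5a* was called in WT (1.94, beside 0.80 in P53-/-) and *Stat6* in P53-/- (0.81, beside 0.42 in WT). The difference between genotypes did not pass for *Stat5a* (limma adjusted p = 0.441) or *Stat6* (limma adjusted p = 0.489). The *Stat2* call was lost in WT without WT 2i library 1 (0.62, limma adjusted p = 0.114), WT serum library 1 (0.101) or WT serum library 2 (0.113), and in P53-/- without P53-/- 2i library 1 (0.44) or P53-/- serum library 2 (0.35).

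Inhibitors went in both directions between cultures. *Socs2*, *Socs4*, *Socs5*, *Pias1* and *Ptpn11*, the gene of the phosphatase SHP2, fell in 2i in both genotypes. Their log2 differences, in this order, were -0.99, -1.20, -1.46, -1.03 and -1.02 in WT ESCs and -0.69, -1.48, -1.99, -1.04 and -0.59 in P53-/- ESCs. *Ptpn6*, the gene of the phosphatase SHP1, rose by 0.93 and 1.51, and *Pias4* by 0.59 and 0.89, in WT and P53-/- ESCs. *Socs1* (1.53, beside 0.20 in P53-/-) and *Pias3* (0.66, beside 0.55 in P53-/-) were called higher in WT only, and the difference between genotypes did not pass for either. In P53-/- ESCs *Pias3* was 1.46-fold higher in 2i (limma adjusted p = 0.0337) and missed only the fold limit of 1.5. With median-ratio scaling it was called there (0.60). In P53-/- ESCs the call of *Ptpn11* was lost without P53-/- 2i library 1 (-0.41) or P53-/- serum library 1 (-0.51), and that of *Socs2* without P53-/- 2i library 2 (-0.56) or P53-/- serum library 2 (-0.52). In WT ESCs the call of *Pias3* was lost without WT 2i library 1 (0.50), and that of *Pias4* without WT 2i library 1 (0.34) or WT serum library 1 (0.48).

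Of other STAT3 targets, *Klf5*, *Bcl3* and *Zfp36* fell in 2i in both genotypes, with log2 differences of -1.54, -1.07 and -0.82 in WT and -1.64, -1.25 and -1.53 in P53-/- ESCs. *Fos* rose by 3.63 and 2.26 and *Irf1* by 0.81 and 0.87. *Klf4* fell by 1.08 in P53-/- ESCs (limma adjusted p = 0.000278) and was 0.05 higher in WT (limma adjusted p = 0.758). *Cebpd* and *Pramel7* were called higher in WT 2i (1.46 and 3.08), but under 3 FPKM in every library. The WT calls were lost for *Zfp36* without WT 2i library 2 or either WT serum library (limma adjusted p 0.171 to 0.216), for *Cebpd* without WT 2i library 1 (0.134) or WT serum library 1 (0.174), and for *Pramel7* without WT serum library 2 (0.105). *Pim2*, the remaining Pim kinase, was lower in 2i (-0.60 in WT and -0.88 in P53-/- ESCs), and its WT call was lost without either P53-/- 2i library, WT 2i library 2 or WT serum library 2 (limma adjusted p 0.103 to 0.386).

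**Figure D4:**
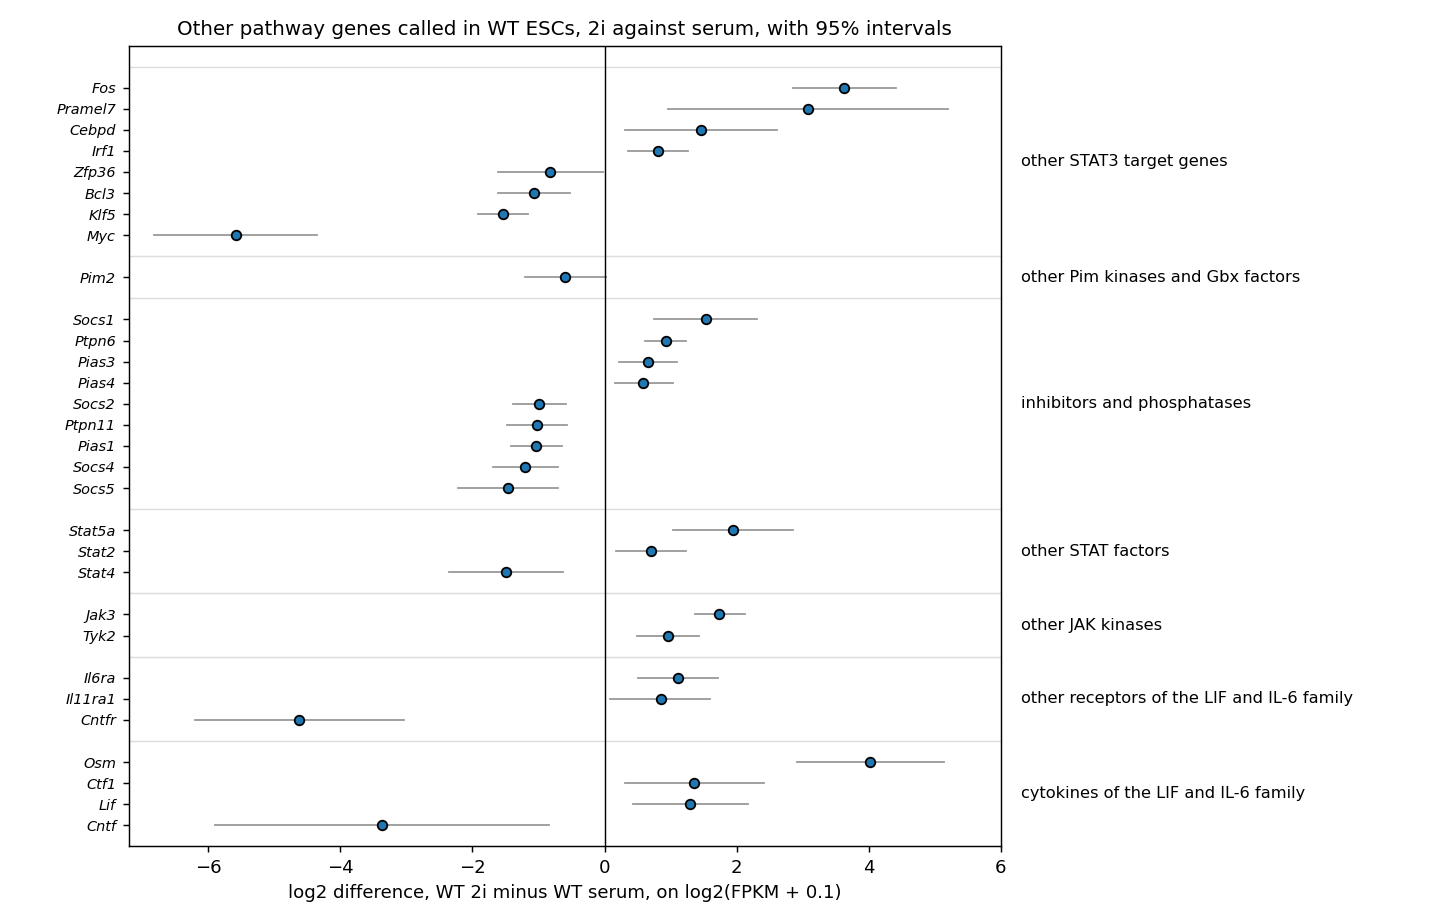
Differences of WT 2i from WT serum on the log2(FPKM + 0.1) scale (horizontal axis) of the 30 other pathway genes called in this comparison, grouped by role, with 95% intervals from limma as bars. *Fos* (3.63) and *Osm* (4.02) lie farthest to the right, *Myc* (-5.58) and *Cntfr* (-4.62) farthest to the left.

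The genes most like a member were sought for the 3 members whose group means spanned more than 1 on the log2 scale, among 8136 genes with a mean of at least 5 FPKM, by the root mean square difference of log2 values centred on each gene's mean over the 8 libraries. Nearest to *Lifr* were *Trim33* (0.05), *Slc7a6* (0.07) and *Qk* (0.07), against a range of 1.35 of *Lifr* itself. Nearest to *Il6st* were *Mia2* (0.10), *Exo1* (0.10) and *Armc1* (0.11). Nearest to *Gbx2* were *Phlda2* (0.29), *Ppig* (0.30) and *Tcfl5* (0.30). *Trim33*, for example, went from 18.3 and 20.1 FPKM in WT serum to 8.65 and 8.99 in WT 2i.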

How the data were processed

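Total RNA of G1-sorted ESCs was depleted of ribosomal RNA and sequenced as stranded libraries. A single table of FPKM, deposited by the authors, holds a column for each library. The submitters' processing notes name STAR, Cufflinks, DESeq2 and build mm9, without roles or versions. Columns name genotype and culture only, and were grouped by these names. Samples labelled p21 KO, and the WT samples titled alongside them, were not analysed here.

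Genes with a mean of at least 0.5 FPKM were tested with limma 3.58.1 (R 4.3.3) on log2(FPKM + 0.1), which understates changes of low genes, in a single fit of the 4 groups, with eBayes trend and Benjamini-Hochberg adjustment over 12572 genes. Calls required a fold over 1.5 together with an adjusted p under 0.1. FPKM are not counts, so no count model was used. Small RNA genes (1312 symbols) take most of each FPKM sum, while median-ratio factors lay between 0.9875 and 1.028. Depth was estimated from value steps of 2436 genes with 1 transcript in GENCODE M21. Promoters are from RefSeq, GRCm38.p6, and 8 of 8 members matched.

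The members and gene lists were chosen with earlier results of these data known. Members and *Trp53* are always named, other pathway genes where called in any of 5 comparisons (1 of those called in P53-/- 2i is not reported here), and the 3 most similar genes for members spanning over 1 on the log2 scale. Alternatives were pseudocounts of 1 and 0.01, no filter, a mean of at least 1, median-ratio and quantile scaling, eBayes without trend, an adjusted p under 0.05, no small RNA genes, a fit of the compared groups only, and each library left out. On simulated data for P53-/- against WT in 2i (12253 genes), calls recovered 54 of 100 genes given a log2 change of 1 and 80 of 100 given a log2 change of 2, none with the wrong sign, and took in 17 unchanged genes. Only these genes were changed, in P53-/- 2i alone, and the 4 groups otherwise shared a base level for each gene. In the data 10.3% of genes were called in this comparison, so these rates need not hold for the data. Figures were drawn with Python 3.11.15 and matplotlib 3.10.9.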

Additional observations from a re-analysis of the deposited data

How the results depend on the processing

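No paired analysis was possible because the columns carry no replicate numbers. The number of members called after P53 loss in 2i (2) was 1 with eBayes without trend, 1 at an adjusted p under 0.05 and 0 in a fit of the compared groups only. Other pathway genes called after P53 loss in serum (2) numbered 0 with a pseudocount of 1, quantile normalization, an adjusted p under 0.05 or the compared groups only, and 1 without a filter, with a mean of at least 1 or without trend. For the difference of the P53 effect, 1 pathway gene (*Klf4*) was called with a pseudocount of 1 and 1 without small RNA genes, against 0. Signs turned, with no call on either side, for *Gbx2* after P53 loss in 2i with a pseudocount of 1 (-0.01), and with quantile normalization for *Jak1* after P53 loss in 2i (-0.05), *Stat3* (0.05) and *Pim1* (0.06) between cultures in P53-/- ESCs and *Socs3* in the difference of the P53 effect (-0.05). With single libraries left out, calls of members ranged from 0 to 2 for P53 loss in 2i, 0 to 0 in serum, 4 to 4 between cultures in WT, 3 to 5 in P53-/- and 0 to 0 for the difference. Those of other pathway genes ranged from 5 to 10, 0 to 1, 24 to 32, 24 to 27 and 0 to 1. Signs turned, with log2 ranges, for P53 loss in 2i of *Jak1* (-0.16 to 0.20), *Socs3* (-0.29 to 0.19), *Pim3* (-0.44 to 0.07) and *Gbx2* (-0.69 to 0.73), in serum of *Il6st* (-0.23 to 0.04) and *Gbx2* (-0.09 to 0.46), between cultures in P53-/- ESCs of *Stat3* (-0.34 to 0.17) and *Pim1* (-0.30 to 0.13), and for the difference of *Stat3* (-0.50 to 0.01), *Socs3* (-0.23 to 0.24) and *Gbx2* (-0.87 to 0.55). The cause was not tested. Single calls of other pathway genes between cultures were also lost with all libraries. In WT these were *Il11ra1* (pseudocount 1, 0.53; quantile normalization, 0.60), *Pias3* (pseudocount 1, 0.55), *Pias4* (pseudocount 1, 0.56), *Zfp36* (pseudocount 1, -0.56; no filter) and *Pramel7* (pseudocount 0.01, 3.73), and *Pim2* under 5 such settings besides the stricter p. In P53-/- ESCs they were *Lif* (pseudocount 1, 0.35; quantile normalization, 0.70; compared groups only), *Ptpn11* (pseudocount 1, -0.56; median-ratio scaling, -0.54; quantile normalization, -0.46), *Stat2* (pseudocount 1, 0.52) and *Socs2* (quantile normalization, -0.58). At an adjusted p under 0.05, *Il11ra1*, *Pim2* and *Zfp36* were lost in WT, and *Stat5a* after P53 loss in 2i. With a pseudocount of 1 the differences of genes of low level shrank, in WT to -4.09 for *Myc*, -2.12 for *Cntfr*, -1.46 for *Cntf*, 1.73 for *Osm*, 1.38 for *Pramel7* and 0.69 for *Cebpd*, and with 0.01 they were -6.60 for *Cntfr*, -5.10 for *Cntf* and 5.21 for *Osm*. The estimated fragments of *Gbx2* in 2i, 39 to 86 a library, were the fewest of any member.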
